A study of Mus musculus with 12 samples.

Results

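The comparison described here set regulatory T cells (Tregs) that carried the tethered cytokine 3A10t against Tregs that carried the tethered cytokine 1G12t, both kept without IL-2. Its members are 6 of the 12 libraries of the series, 3 of 3A10t and 3 of 1G12t, read over the 15043 genes whose normalised transcript abundance (TPM) averaged at least 1 across the 12 libraries, out of 55228 genes listed. Foxp3.GFP+CD25+ Tregs came from the lymph nodes of 16 NOD.Foxp3-GFP mice as a single pool of CD4+ cells, which was divided into 3 portions that were sorted on 3 machines and activated apart. Each portion was transduced on day 2 with an MSCV retrovirus that carried the 1G12 tether, the 3A10 tether or no insert (EV, the empty vector), each with IRES-Thy1.1 as a surface tag. On day 4 all were washed and then cultured for 5 days without IL-2, except that part of the EV cells stayed in IL-2 (EV+IL-2), and RNA-seq was performed on Thy1.1+ cells purified on day 9. The 3 replicates of a group are thus separate cultures of the same pool of mice, not separate animals, and p-values measure the spread between such cultures.

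A tether is an engineered cytokine joined by a linker to the β chain of its receptor, so that a cell stimulates itself. OrthoIL-2 and orthoIL-2Rβ are a mutated pair made to bind each other instead of the natural cytokine and receptor. As soluble proteins, 1G12 binds the orthogonal receptor more tightly and keeps some activity on the natural receptor, whereas 3A10 is selective and weak. IL-2 signals through JAK1 and JAK3 to STAT5 and through PI3K, AKT and mTOR. In Tregs, which make almost no IL-2 themselves, this signal sustains Foxp3, survival and growth, and STAT5 switches on its own inhibitors of the SOCS family.

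In 3A10t, Socs2, the lytic granule protease Gzmc, B-type cyclins and a minority of the tested genes of protein synthesis and energy metabolism were higher than in 1G12t, while Edrf1, Srf, Upf1, Tnfaip3, Il7r and Cd274 were lower. Of 15043 genes, 196 were higher (1.30%) and 446 were lower (2.96%) at an adjusted p under 0.05, 642 in all (4.27%); unless stated otherwise a difference is on the log2(scaled TPM + 1) scale, 3A10t minus 1G12t, and passing the test means this limma threshold. All 3 libraries of 3A10t were above all 3 of 1G12t for 13.7% of the genes and below them for 12.5%. At an unadjusted p under 0.01 with a difference beyond 0.25, 1857 genes (12.3%) differed, 795 upward and 1062 downward. The median difference over all genes was -0.02; with TPM as deposited it was -0.18, and list medians given for TPM as deposited hold this shift.

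Most of the calls lay just under the threshold, with a median adjusted p of 0.0398 among the 642. With the replicate number, which marks a shared sort, as a block, 987 genes passed, 348 of them higher. In a fit of the 6 tether libraries alone, 13 genes passed, 11 of them with annotated transcripts of up to 200 bases, and each of the 62 protein-coding genes named here as changed had an adjusted p of 0.278. Leaving out 3A10t replicate 1 raised the number of calls to 4106. Leaving out 3A10t replicate 3 lowered it to 40, 1G12t replicate 3 to 47, 1G12t replicate 2 to 86, 3A10t replicate 2 to 107 and 1G12t replicate 1 to 111, and leaving out 1 EV library gave 88 to 215. Among the gene lists described here, those of IL-2 induced genes, DNA replication and γδ T cell markers each held 1 call without 1G12t replicate 3 and the others none. Without 3A10t replicate 1, 61 of 79 cytoplasmic ribosomal proteins, 56 of 79 respiratory chain genes, 45 of 78 mitochondrial ribosomal proteins and 30 of 46 proteasome genes were called higher. The median SD between replicates was 0.22 in 3A10t and 0.15 in 1G12t, above the 0.12 of EV and the 0.11 of the cultures with IL-2, so the EV libraries narrowed the shared estimate of the spread.

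**Figure D1:**
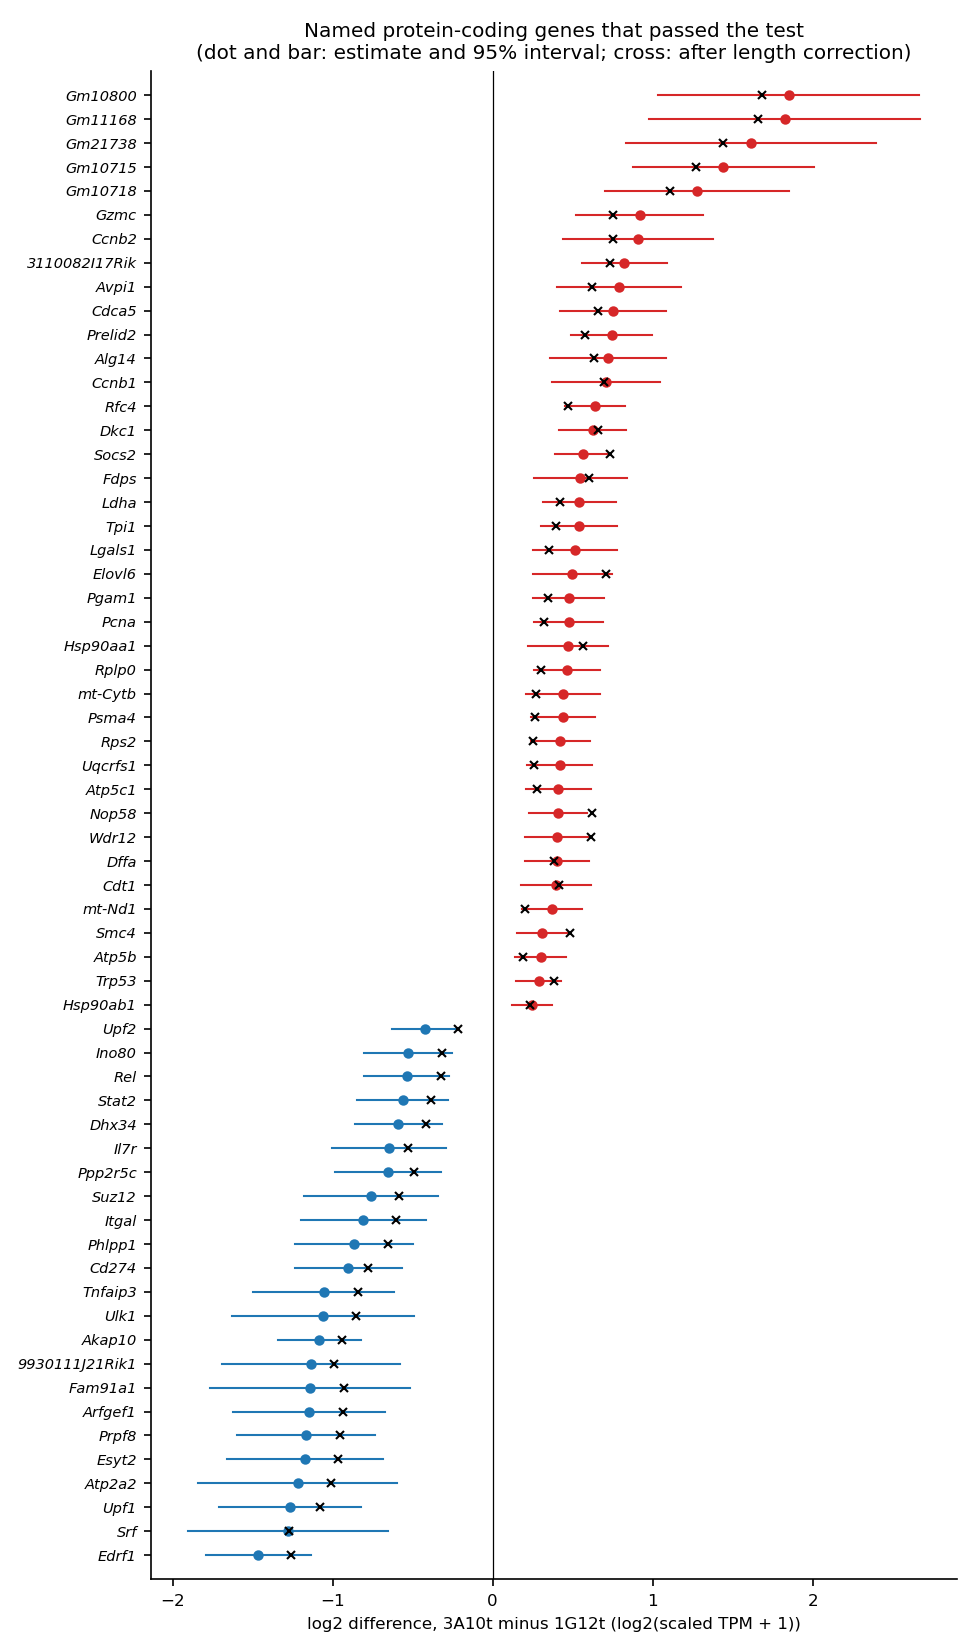
Log2 differences of the named protein-coding genes that passed the test; the x axis is 3A10t minus 1G12t in log2(scaled TPM + 1), dots and bars are estimates with 95% intervals, red is higher and blue lower in 3A10t, and crosses are the estimates after a correction for transcript length. Edrf1 sits lowest at -1.46, and the AT-rich satellite-like genes, led by Gm10800 at 1.85, sit highest.

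The genes carried by the vectors did not separate the tethers. Il2 stood at 25.1, 17.1 and 13.1 scaled TPM in the 3 libraries of 1G12t and at 30, 28.5 and 18.5 in those of 3A10t, against 0.225 to 0.496 in EV, so that all 6 tether libraries were above all EV libraries. The groups overlapped, and the difference was 0.48 ± 0.23 (SE) with an adjusted p of 0.189. Il2rb, whose reads also include the engineered receptor chain, was at 435, 367 and 391 in 1G12t and 415, 351 and 358 in 3A10t, a difference of -0.09 ± 0.09 (SE) (adjusted p = 0.563). Thy1, which the tag also encodes, was at 263.5, 183.5 and 187 in 1G12t and 225, 261.5 and 208 in 3A10t, again with overlap (adjusted p = 0.489), whereas EV, whose vector has the tag too, held 3509, 3222 and 3225. Gene-level TPM cannot tell vector transcripts from those of the genome.

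The other receptor chains and the kinases below them were close. Il2ra, the high-affinity chain CD25, was at 438, 400.3 and 313 in 1G12t and 410.3, 364 and 379 in 3A10t, and its difference of 0.02 ± 0.11 (SE) changed sign with other scalings. Il2rg, the common γ chain shared by several cytokine receptors, reached 2111, 2780 and 2391 in 3A10t against 2019, 1885 and 1842 in 1G12t, without overlap, but at an adjusted p of 0.0848 it did not pass. Jak1, Jak3, Stat5a and Stat5b, the kinases and transcription factors of the pathway, had differences of 0.00, -0.18, -0.29 and -0.19, each with overlapping libraries and adjusted p from 0.165 to 1. None of these genes passed the test.

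Among the feedback inhibitors of the JAK-STAT pathway, Socs2 alone passed the test, at 582, 517 and 579.9 scaled TPM in 1G12t and 756, 868.5 and 856 in 3A10t. Every 3A10t library was above every 1G12t and every EV library (625, 622 and 573.5) and below every EV+IL-2 library (1127, 1139 and 1069). Socs2 (chromosome 10, 95385362 to 95417180, minus strand, GRCm38) differed by 0.56 ± 0.08 (SE) with an adjusted p of 0.0102, and passed under 23 of 25 alternatives, the exceptions being the 6 libraries alone and the omission of 3A10t replicate 3. Cish, which encodes another member of the family and is a classical STAT5 target, stood at 255, 231.5 and 300.3 in 1G12t and 280.4, 309 and 285 in 3A10t, with overlap. Its difference of 0.16 ± 0.09 (SE) (adjusted p = 0.269) turned to -0.03 with TPM as deposited and to -0.04 after quantile normalization. Socs1 was at 203, 164 and 154.5 and 194, 217 and 211 (adjusted p = 0.182), and Socs3 at 114, 102 and 56.5 and 97, 77 and 87.9 (adjusted p = 1).

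Of the 39 genes in the list of IL-2 induced genes, Socs2 was the one that passed (3 with the replicate block), beside 1.30% of all genes called higher. In this list 11 genes were above 1G12t in every 3A10t library and 1 was below, beside 13.7% and 12.5% of all genes. The median difference was 0.21, against 0.77 for the same genes between EV+IL-2 and EV. The tether median was 0.02 with TPM as deposited and 0.08 after quantile normalization. Per library the median level of the list, relative to EV, was 0.12, 0.01 and 0.00 in 1G12t and 0.23, 0.36 and 0.29 in 3A10t, so that the tethers did not overlap. Lta, the lymphotoxin gene, was at 157, 139.6 and 137 in 1G12t and 153, 222 and 186.5 in 3A10t, and at 522, 557.5 and 501 in EV+IL-2; its difference was 0.35 ± 0.12 (SE) (adjusted p = 0.0907). Myc, a driver of growth, was at 305, 273 and 189.7 and 342, 304 and 348, where 3A10t replicate 2 fell within the range of 1G12t (adjusted p = 0.11). Osm, encoding oncostatin M, differed by 0.30 ± 0.12 (SE) (adjusted p = 0.132). Bcl2, Pim1 and Tnfrsf9, which support survival or costimulation, differed by 0.16, -0.14 and 0.08, with adjusted p of 0.492, 0.389 and 0.769.

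**Figure D2:**
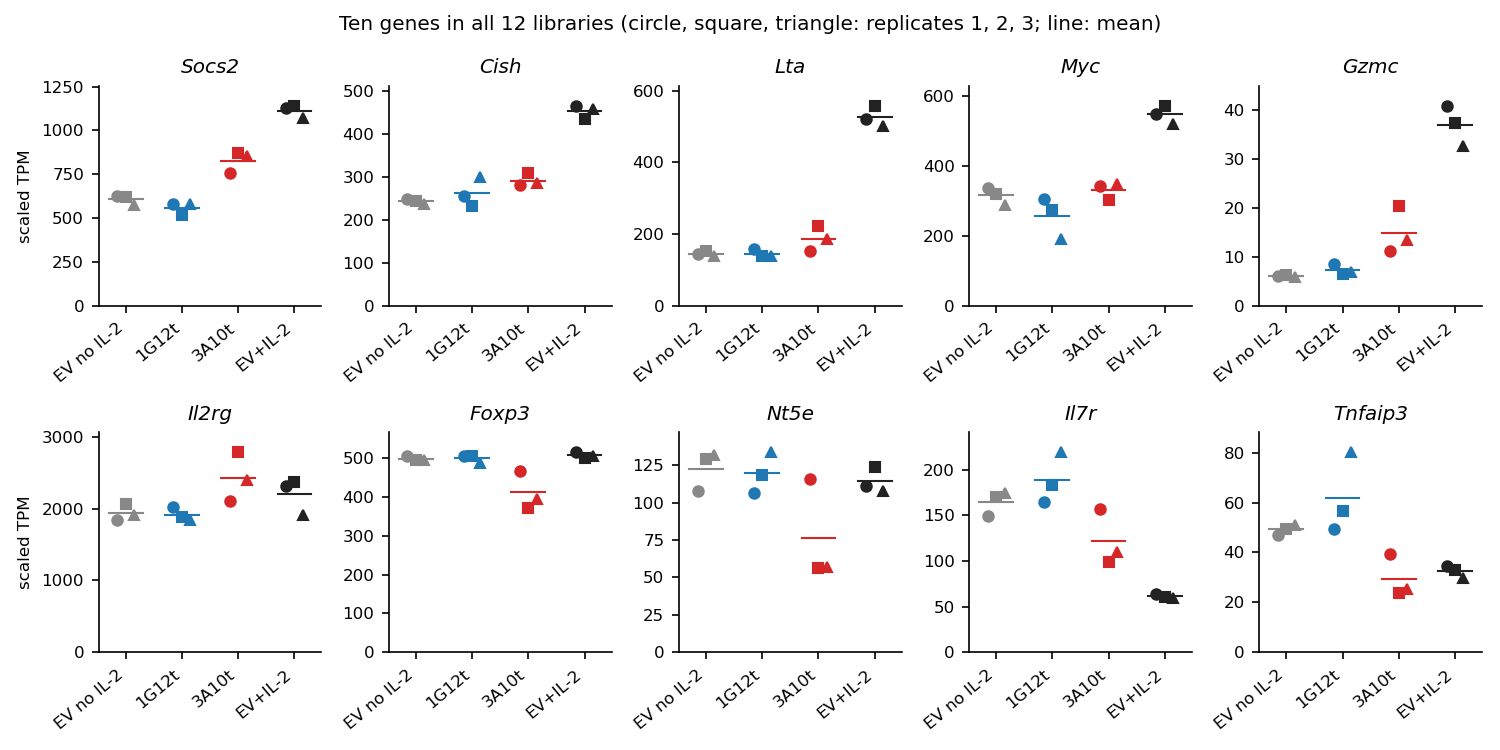
Scaled TPM (y axis, from 0) of 10 genes in each of the 12 libraries (x axis, by group); circles, squares and triangles are replicates 1, 2 and 3 and lines are group means. Socs2 and Gzmc of 3A10t sit above 1G12t and EV and below EV+IL-2, while Il7r and Tnfaip3 of 3A10t sit below 1G12t.

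The promoters of this list were read for TTCNNNGAA, the inverted repeat that STAT5 dimers bind, which has the same letters on both strands. RefSeq windows from 250 bases before to 50 after the start were found for 29 of the 39 genes, and 7 held the motif (24.1%). Counted by gene in the same way, 8.37% of the 8794 tested protein-coding genes with a window held it. Counted by single window, 8.3% of all 32851 did. Among protein-coding genes that were higher in 3A10t, 8 of 108 with a window held it (7.41%), and among those lower, 25 of 353 (7.08%), beside 8.37% of the 8794 tested genes with a window. The promoters below are of Cish, Lta and Gzmb, which respond to soluble IL-2 and are among the 7 genes of the list that held the motif. No window was found for Socs2, the gene of the list that passed. Capitals mark the motif, and the windows are from the GRCm38.p6 build at chr9:107296409-107296708 (plus strand), chr17:35205302-35205601 (minus) and chr14:56262285-56262584 (minus).
Cish: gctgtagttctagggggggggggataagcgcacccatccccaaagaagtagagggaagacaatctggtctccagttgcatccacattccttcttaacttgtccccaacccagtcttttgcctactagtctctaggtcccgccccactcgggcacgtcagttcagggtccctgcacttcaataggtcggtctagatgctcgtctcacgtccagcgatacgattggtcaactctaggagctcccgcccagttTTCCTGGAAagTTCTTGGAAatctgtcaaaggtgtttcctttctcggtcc
Lta: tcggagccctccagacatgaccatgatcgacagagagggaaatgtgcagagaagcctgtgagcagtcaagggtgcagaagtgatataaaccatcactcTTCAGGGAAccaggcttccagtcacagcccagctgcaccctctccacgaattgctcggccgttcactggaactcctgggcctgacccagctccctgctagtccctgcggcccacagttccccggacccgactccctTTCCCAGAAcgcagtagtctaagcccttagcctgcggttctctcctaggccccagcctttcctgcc
Gzmb: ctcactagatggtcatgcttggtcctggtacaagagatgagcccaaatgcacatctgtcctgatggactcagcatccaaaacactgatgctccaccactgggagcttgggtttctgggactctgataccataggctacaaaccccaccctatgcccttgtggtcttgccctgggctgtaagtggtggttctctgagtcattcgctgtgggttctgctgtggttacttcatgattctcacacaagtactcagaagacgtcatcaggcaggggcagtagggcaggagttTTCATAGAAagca
In Cish the motif occurs 2 times, the first at the annotated start and the second 11 bases on. Lta also has 2 occurrences and Gzmb has 1. A match of letters is no evidence of binding, and these genes did not pass the test between the tethers.

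Genes of cytotoxic granules and of suppression moved in different directions. Gzmc, a granzyme, was at 8.42, 6.49 and 6.79 in 1G12t and 11.1, 20.3 and 13.4 in 3A10t, beside 6.13, 6.31 and 5.81 in EV and 40.8, 37.2 and 32.7 with IL-2. The 3A10t libraries were all above the others without IL-2, by 0.92 ± 0.18 (SE) over 1G12t (adjusted p = 0.0327). Gzmb, another granzyme, was at 47.6, 33.2 and 3.36 and 57, 74.2 and 68.3, far below EV+IL-2 at 514, 558 and 493. Its groups did not overlap, but 1G12t replicate 3 was so low that the difference of 1.79 ± 0.67 (SE) had an adjusted p of 0.111, and without that library the difference was 0.72. Prf1, perforin, was at 5.85, 7.5 and 4.05 and 8.82, 7.79 and 9.01 (adjusted p = 0.0823). Granzymes form a family of similar sequence, and reads shared between them were divided by estimation.

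Among 17 tested suppressive mediators, Lgals1, encoding galectin-1, rose and Cd274 and Itgal fell, beside 1.30% of all genes called higher and 2.96% lower. Lgals1 was at 501, 454 and 412 in 1G12t and 587, 780.2 and 599 in 3A10t, a difference of 0.52 ± 0.12 (SE) (adjusted p = 0.0431). Cd274, which encodes the inhibitory ligand PD-L1, was at 12.7, 13.3 and 15.1 in 1G12t and 8.96, 5.33 and 6.64 in 3A10t, lower by 0.90 (adjusted p = 0.0213), and passed under 20 of 25 alternatives. Itgal, the integrin chain of LFA-1, was at 56.4, 66.6 and 66.2 and 50.7, 29.4 and 29.8, with replicate 1 of 3A10t nearest to 1G12t (adjusted p = 0.0398). Ebi3, a subunit of IL-35, was at 20.5, 21.2 and 25.2 and 26.8, 34.7 and 28.9 with an adjusted p of 0.0583. Il10 was at 15.6, 15.4 and 1.85 and 12.3, 17.3 and 15.5, so that 1G12t replicate 3 alone set its difference of 0.79 ± 0.54 (SE) (adjusted p = 0.345; -0.05 without that library). Tgfb1 was at 7.96, 7.15 and 10.7 and 5.15, 7.3 and 6.2 (adjusted p = 0.163).

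No gene of 23 tested in the Treg identity list passed. Foxp3, the lineage-defining transcription factor, was at 506.5, 505 and 488.5 in 1G12t and 468, 373 and 395 in 3A10t, while EV held 506, 495 and 496. All 3 libraries of 3A10t were below all others, but the difference of -0.29 ± 0.08 (SE) had an adjusted p of 0.0595, and 5 of 25 alternatives called it. Itgae, the integrin CD103, was at 24.9, 28 and 27.6 and 24.4, 11.2 and 12.2 (adjusted p = 0.0589), where 3A10t replicate 1 lay near 1G12t and the other two did not. The same library stood apart for Nt5e, the ecto-enzyme CD73, at 106.5, 119 and 134 in 1G12t and 116, 56 and 56.6 in 3A10t (adjusted p = 0.0805), and for Tnfrsf1b, the receptor TNFR2, at 138, 142.5 and 101 and 124, 60.9 and 69.1 (adjusted p = 0.0935). Ikzf2, Ctla4 and Entpd1 differed by -0.12, -0.12 and -0.17, with adjusted p of 0.775, 0.495 and 0.371. Summed over 8 T cell and Treg markers, the level was 4970 to 5490 in 1G12t and 5340 to 6330 in 3A10t. Tnfrsf18 and Cd3g held the largest parts of that sum. Of the 8 markers 3 had a positive difference, and none passed. Their median was -0.10, or -0.0002 without 3A10t replicate 2.

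Genes that respond to the antigen receptor (TCR), and genes of resting T cells, included lower members in 3A10t. Tnfaip3, encoding the NF-κB inhibitor A20, was at 49.2, 56.6 and 80.1 in 1G12t and 39.4, 23.6 and 25.3 in 3A10t, below the EV libraries (47.2, 49.4 and 51.1) too. It fell by 1.06 (adjusted p = 0.0306). Rel, an NF-κB subunit, was at 11.8, 13.2 and 13.8 and 10.1, 7.46 and 8.33 (adjusted p = 0.0405). These were the 2 of 27 genes of the TCR response list that passed, beside 2.96% of all genes called lower. In the list 7 were below 1G12t in every 3A10t library and none above, beside 12.5% and 13.7% of all genes. The list median was -0.25, but without 1G12t replicate 3, where the list stood 0.72 above EV, it was 0.06. Il7r, the IL-7 receptor α chain, which IL-2 lowers, was at 164, 183 and 219 in 1G12t and 157, 98.6 and 109.8 in 3A10t. The cultures with IL-2 held 64.1, 60.3 and 59.1. Between the tethers Il7r fell by 0.65 (adjusted p = 0.0497). It was the 1 of 20 genes of quiescence that passed, beside 2.96% of all genes called lower, and the list median was -0.21. That median was -0.07 after correction for transcript length and -0.06 without 3A10t replicate 2, which stood at -0.48 relative to EV, while replicate 1 at -0.07 lay within the range of 1G12t (-0.09 to -0.01). With the replicate block the adjusted p of Il7r was 0.0553, while 2 others of the list passed.

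In the PI3K, AKT and mTOR list, Phlpp1, a phosphatase that acts on AKT, stood at 14.4, 15.9 and 18.9 in 1G12t, at 11.5, 6.61 and 7.94 in 3A10t and at 8.31, 6.52 and 7.04 with soluble IL-2. It fell by 0.87 (adjusted p = 0.0322). It was the 1 of 36 genes that passed (4 with the replicate block), a share near the 2.96% of all genes called lower. In the list 9 genes were below 1G12t in every 3A10t library and 3 above, beside 12.5% and 13.7% of all genes. The list median was -0.18, or -0.02 after correction for transcript length and -0.07 without 3A10t replicate 2. The list of PP2A subunits, a phosphatase family, had 1 of 16 genes pass (3 with the replicate block), Ppp2r5c, at 177, 193 and 179 in 1G12t and 153, 94.5 and 108 in 3A10t (adjusted p = 0.0433). None of the 16 was above 1G12t in every 3A10t library and 6 were below, beside 13.7% and 12.5% of all genes. The PP2A median was -0.43, and 3A10t replicate 2 led at -0.72 relative to EV against -0.03 and -0.18 for replicates 1 and 3. Without 3A10t replicate 2 the PP2A median was -0.27.

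Some cell cycle genes were higher in 3A10t. Ccnb2, a B-type cyclin that drives entry into mitosis, was at 3.33, 4.85 and 3.05 in 1G12t, 6.83, 8.93 and 7.67 in 3A10t and 56.8, 50.6 and 36 in EV+IL-2. It rose by 0.91 ± 0.21 (SE) (adjusted p = 0.0448). Ccnb1 was at 4.55, 4.62 and 3.56 in 1G12t and 6.91, 8.55 and 7.24 in 3A10t (adjusted p = 0.0394), and Cdca5, which holds sister chromatids together, was at 2.56, 3.11 and 2.2 and 4.05, 5.74 and 5.55 (adjusted p = 0.0332). Smc4, a condensin subunit, was at 659.6, 719.9 and 679 and 775.5, 896 and 886 (adjusted p = 0.045), although EV+IL-2 held less of it than EV, 487, 481 and 488. Both cyclins and Smc4 were the 3 of 45 mitosis genes that passed (6 with the replicate block), beside 1.30% of all genes called higher. In every library 16 were above and 1 below, beside 13.7% and 12.5% of all genes. The list median was 0.31, beside 2.24 between EV+IL-2 and EV. The tether median was 0.18 without 1G12t replicate 3 and 0.16 with TPM as deposited.

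Among 40 genes of DNA replication 3 rose and none fell, beside 1.30% and 2.96% of all genes. The list median was 0.15, which was 0.09 without 1G12t replicate 3 and -0.02 with TPM as deposited. Rfc4, a subunit of the clamp loader (chromosome 16, 23113943 to 23127737, minus strand), was at 12.1, 12.2 and 10.9 in 1G12t, 17.6, 20.3 and 18.5 in 3A10t and 31.9, 31.6 and 28.7 in EV+IL-2. Its difference of 0.64 ± 0.09 (SE) had an adjusted p of 0.00882 and passed in all 12 omissions of a single library. Pcna, the sliding clamp, was at 115, 98.9 and 97.3 in 1G12t and 131, 160.5 and 141 in 3A10t (adjusted p = 0.0348), and Cdt1, a licensing factor, at 20.4, 20.3 and 16.9 and 23.6, 25.9 and 27 (adjusted p = 0.0497, 0.0555 with the replicate block). Birc5, which is both a mitotic protein and an inhibitor of apoptosis, was at 7.37, 6.22 and 4.03 and 7.9, 18.3 and 11.7 without passing (adjusted p = 0.0798).

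Of 79 cytoplasmic ribosomal proteins 16 rose, none fell and 70 were above 1G12t in every 3A10t library, with a median of 0.31. Rplp0, of the ribosomal stalk, was at 877, 876 and 809 in 1G12t and 1037, 1350 and 1168 in 3A10t (adjusted p = 0.0333) and Rps2, of the small subunit, at 541, 509 and 491 and 625, 739 and 706.5 (adjusted p = 0.0324). Relative to EV the median over the list was 0.10, 0.43 and 0.25 in replicates 1, 2 and 3 of 3A10t, and between -0.08 and -0.03 in 1G12t. The median was 0.19 after correction for transcript length, 0.09 after quantile normalization and 0.12 with TPM as deposited. Ribosomal protein genes have many processed pseudogenes of like sequence, so the division of their reads is uncertain.

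Ribosome biogenesis genes have longer transcripts than ribosomal protein genes (median 3113 against 1059 bases). Of 35 members 3 were higher and none lower, beside 1.30% and 2.96% of all genes, and the list median was 0.20. It was 0.11 without 1G12t replicate 3, where the list stood at -0.29 relative to EV, and 0.01 with TPM as deposited. Dkc1, the pseudouridine synthase dyskerin (chromosome X, 75095854 to 75109777, plus strand), was at 120.5, 119 and 101.5 in 1G12t, 161, 192 and 174 in 3A10t and 177, 183 and 158 in EV+IL-2. It rose by 0.62 ± 0.10 (SE) (adjusted p = 0.016), by 0.66 after the length correction, and passed under 22 of 25 alternatives; without 1G12t replicate 3 or 3A10t replicate 3 it did not. Nop58, a snoRNP core protein, was at 129, 126 and 117 and 163, 158 and 174 (adjusted p = 0.0348), and Wdr12, which acts in the making of the large subunit, at 26.9, 27 and 22.7 and 34.2, 35.1 and 32.8 (adjusted p = 0.041). The chaperones Hsp90aa1 and Hsp90ab1 differed by 0.47 and 0.24 (adjusted p = 0.046 and 0.0444), 2 of 27 in their list (4 with the replicate block), and Psma4 was the 1 of 46 proteasome genes that passed (4 higher and 1 lower with the block), at 179.7, 183 and 167 and 216, 274 and 231.

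Some genes of energy metabolism were also higher in 3A10t, where 1.30% of all genes were called higher. Ldha, lactate dehydrogenase, was at 939, 860.3 and 878 in 1G12t and 1105, 1525 and 1296 in 3A10t (adjusted p = 0.0318), and the glycolytic enzymes Tpi1 and Pgam1 differed by 0.54 and 0.47 (adjusted p = 0.0342 and 0.0388). These were the 3 of 23 glycolysis genes that passed, and the list median was 0.18, 0.05 after quantile normalization and -0.01 with TPM as deposited. Of 79 nuclear genes of the respiratory chain 4 rose (10 with the replicate block), among them Uqcrfs1, Atp5c1 and Atp5b with differences of 0.42, 0.41 and 0.30. In this list 60 were above 1G12t in every 3A10t library, beside 13.7% of all genes, and the list median was 0.31. The median was 0.18 after correction for transcript length, 0.10 after quantile normalization, 0.12 with TPM as deposited and 0.16 without 3A10t replicate 2. Of the 13 genes of the mitochondrial genome 2 rose (5 with the replicate block), mt-Nd1 at 2334, 2201 and 1860 and 2715, 2610 and 2906 and mt-Cytb at 3243, 3228 and 2418 and 3972, 3789 and 4200; replicate 3 of 1G12t was the lowest for both, and without it the list median of 0.34 was 0.15. After quantile normalization that median turned to -0.04, and it was 0.14 with TPM as deposited and 0.18 after the length correction. None of 78 mitochondrial ribosomal proteins passed (4 with the replicate block), and Mrpl40 had the lowest p (adjusted p = 0.053). Of these genes 40 were above and 2 below, beside 13.7% and 12.5% of all genes, with a median of 0.30. Relative to EV the 3A10t replicates of this list were at 0.05, 0.50 and 0.16, and the median was 0.15 without replicate 2, 0.20 after the length correction and 0.11 with TPM as deposited.

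In the synthesis of lipids, Elovl6, which elongates fatty acids, was at 18.8, 15.1 and 18.1 in 1G12t, 23.9, 22.4 and 28.5 in 3A10t and 84.2, 81.4 and 83.5 in EV+IL-2. It rose by 0.50 ± 0.11 (SE) (adjusted p = 0.0423). Fdps, a step of the cholesterol pathway, was at 56.4, 50.6 and 43.3 and 64.6, 89.2 and 68.1 (adjusted p = 0.0466). Of 29 tested members of the lipid list 2 passed, beside 4.27% of all genes. The list median was 0.09, -0.08 without 1G12t replicate 3 and -0.10 with TPM as deposited.

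**Figure D3:**
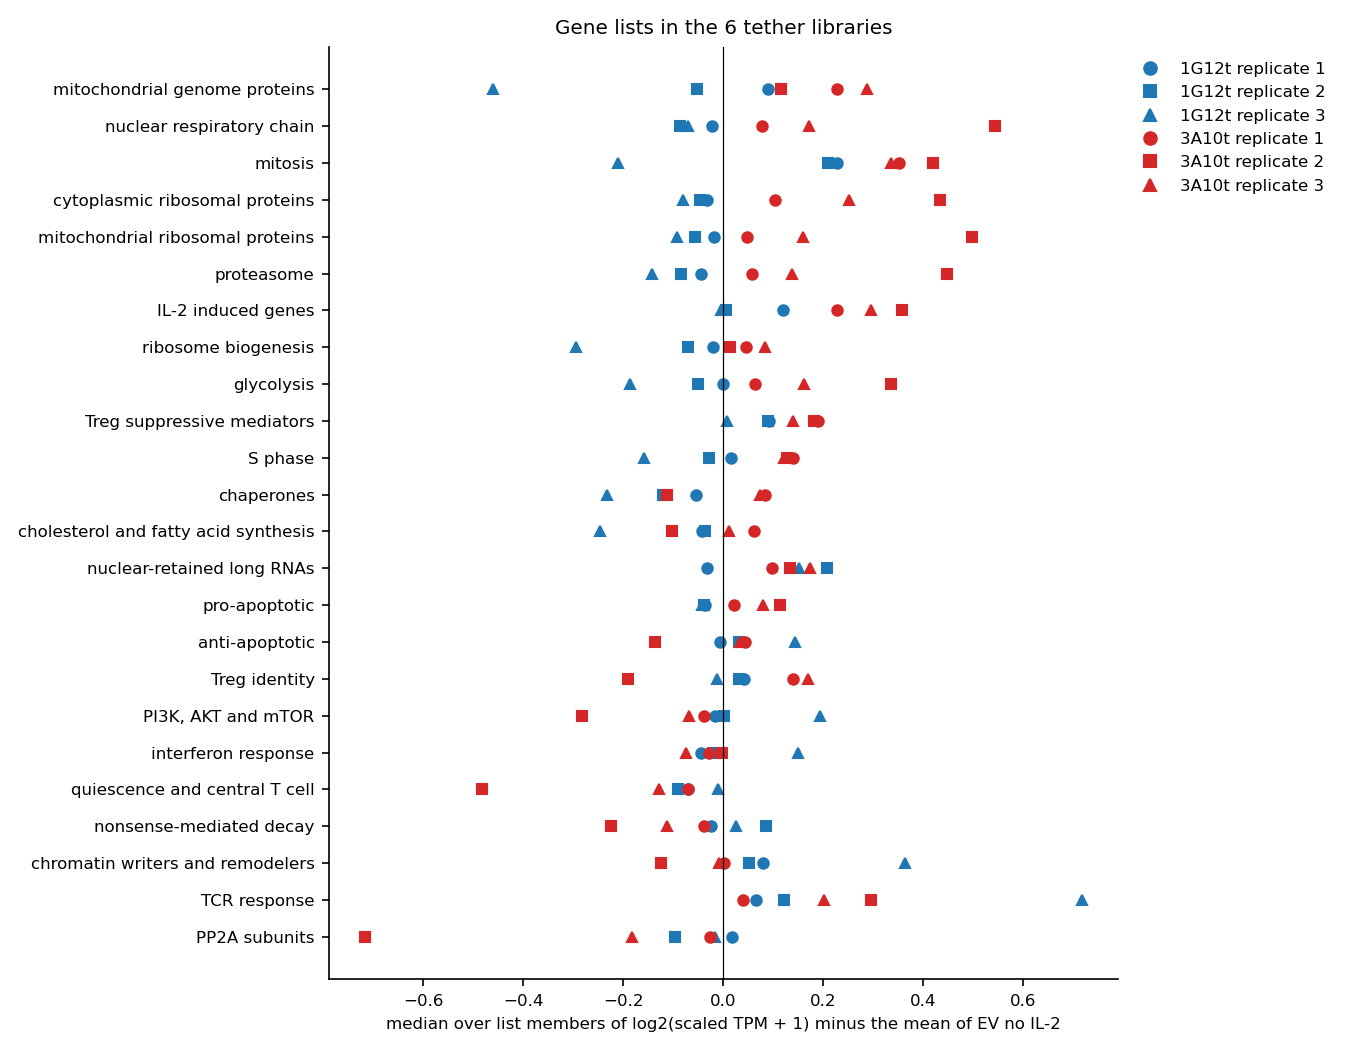
Gene lists (y axis, ordered by the tether difference) in the 6 tether libraries; the x axis is the median over list members of log2(scaled TPM + 1) minus the mean of EV no IL-2, blue is 1G12t, red is 3A10t and shapes are replicates 1 (circle), 2 (square) and 3 (triangle). For ribosomal, respiratory and IL-2 induced genes the red points lie right of the blue ones, replicate 2 of 3A10t is the farthest from 0 in many lists, and 1G12t replicate 3 stands alone at 0.72 for TCR response.

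Among protein-coding genes that passed with a mean TPM of at least 5, the 12 largest falls were in genes of varied function. Edrf1, named for erythroid differentiation, (chromosome 7, 133637543 to 133672971, plus strand) was at 21.9, 22.2 and 21.1 in 1G12t and 9.71, 5.71 and 6.75 in 3A10t, with EV at 19.4, 22.6 and 19.6. It fell by 1.46 (adjusted p = 0.00269) and passed under 24 of 25 alternatives, including each omission of a single library. Akap10, an anchor of protein kinase A, was at 17.6, 17.8 and 21.4 in 1G12t and 10, 7.3 and 7.96 in 3A10t, a fall of 1.08 (adjusted p = 0.00335), and passed under the same number. Srf, serum response factor, was at 12.5, 10.1 and 10.3 and 3.79, 2.66 and 5.72 (adjusted p = 0.04). After the length correction its adjusted p was 0.0543.

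Upf1, the helicase at the centre of nonsense-mediated decay, was at 14.3, 11.2 and 13 in 1G12t and 6.22, 3.04 and 5.48 in 3A10t, a fall of 1.26 (adjusted p = 0.0176); it passed under 21 of 25 alternatives. Upf2 fell by 0.42 and Dhx34 by 0.59. With Upf1 and Smg6 they made 4 lower and 0 higher of 17 genes of this decay pathway, beside 2.96% and 1.30% of all genes. At an unadjusted limma p under 0.05, 6 of the list were lower and 3 were higher. The list median was -0.21, or -0.14 after the length correction. The median transcript of the list was 3963 bases, beside 3330.5 for all tested protein-coding genes. Prpf8, a core splicing factor, was at 35.6, 31.2 and 33.3 and 21.2, 10.4 and 13.2 (adjusted p = 0.0213). Ulk1, a kinase that starts autophagy, was at 23.9, 16.9 and 21.8 and 10.5, 6.27 and 12.4 (adjusted p = 0.0476), and Atp2a2, the calcium pump SERCA2, at 30.2, 21.4 and 29.2 and 14.6, 6.14 and 14.1 (adjusted p = 0.0437). Esyt2, Arfgef1 and Fam91a1, which act in membrane contact and traffic, fell by 1.17, 1.15 and 1.14. The interferon-inducible GTPase gene 9930111J21Rik1 fell by 1.14, with 3A10t at 59.2, 42.8 and 34.4 and 1G12t at 69.5, 102 and 136.

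Upward, 3110082I17Rik, a RIKEN cDNA gene, was at 8.22, 5.58 and 6.27 in 1G12t and 12.5, 13.6 and 11.4 in 3A10t, close to EV+IL-2 at 15.3, 16.4 and 15.4. It rose by 0.82 ± 0.12 (SE) (adjusted p = 0.0126) and passed under 23 of 25 alternatives. Prelid2, Avpi1 and Alg14, the last an enzyme of N-glycan assembly, rose by 0.74, 0.79 and 0.72 (adjusted p = 0.016, 0.04 and 0.0424). Their 3A10t libraries were all above their 1G12t libraries.

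The shares of pro-apoptotic and chromatin genes that passed were near the 4.27% of all genes. Those of the interferon, proteasome, IL-2 induced and PI3K, AKT and mTOR lists were below it. Trp53, encoding p53, was at 203, 207 and 199 in 1G12t and 235, 254 and 254 in 3A10t, and Dffa, an inhibitor and chaperone of the apoptotic nuclease, at 29, 32.1 and 34 and 37.2, 44.9 and 44.7; these were the 2 of 35 pro-apoptotic genes that passed, both upward, and the list median was 0.02, or -0.16 with TPM as deposited. Bcl2l11, the killer protein BIM that cytokine loss raises, was at 11.8, 10.3 and 17.1 and 13.5, 9.23 and 10.4 (adjusted p = 0.444). None of 16 anti-apoptotic genes passed, and Mcl1 was at 164, 73.2 and 179 in 1G12t and 66.1, 48.5 and 129 in 3A10t (adjusted p = 0.294). Of 41 writers and remodelers of chromatin Ino80 and Suz12 fell, by 0.53 and 0.76 (4 genes fell with the replicate block). In this list 12 were below 1G12t in every 3A10t library, beside 12.5% of all genes. The median transcript of the list was 8507 bases, and 30.4% of protein-coding genes over 8000 bases were below. The list median of -0.23 was -0.04 after the length correction and -0.13 without 1G12t replicate 3. Stat2 was the 1 of 56 interferon response genes that passed, at 29.1, 39 and 35.4 and 26.6, 20.9 and 21.5, and the list median of -0.19 was opposite in sign to that between EV+IL-2 and EV, 0.54, and was -0.10 without 1G12t replicate 3 or after the length correction. None of 13 nuclear-retained long RNAs passed; Gas5 had the lowest p (adjusted p = 0.0553).

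Transcript length moved with the difference. Across 11052 protein-coding genes, which are not independent replicates and share the 6 libraries, the difference correlated with log2 of the longest annotated transcript (Pearson r = -0.44, Spearman rho = -0.479). Genes with transcripts of up to 1000 bases had a median difference of 0.27, and those over 8000 bases -0.23. The genes called higher had a median length of 1916 bases, those called lower 5163, and all tested protein-coding genes 3330.5. Relative to EV, short genes were at 0.07, 0.49 and 0.16 in replicates 1, 2 and 3 of 3A10t and between -0.05 and -0.01 in 1G12t. After a lowess correction for length within each library, 96 genes were higher and 111 lower, 59 and 102 of them among the original calls. What length differences stem from was not tested, and 27 of the 68 genes named as changed passed after the correction, among them Socs2, Dkc1, Rfc4, Nop58, Elovl6, Edrf1, Akap10, Upf1 and Tnfaip3.

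**Figure D4:**
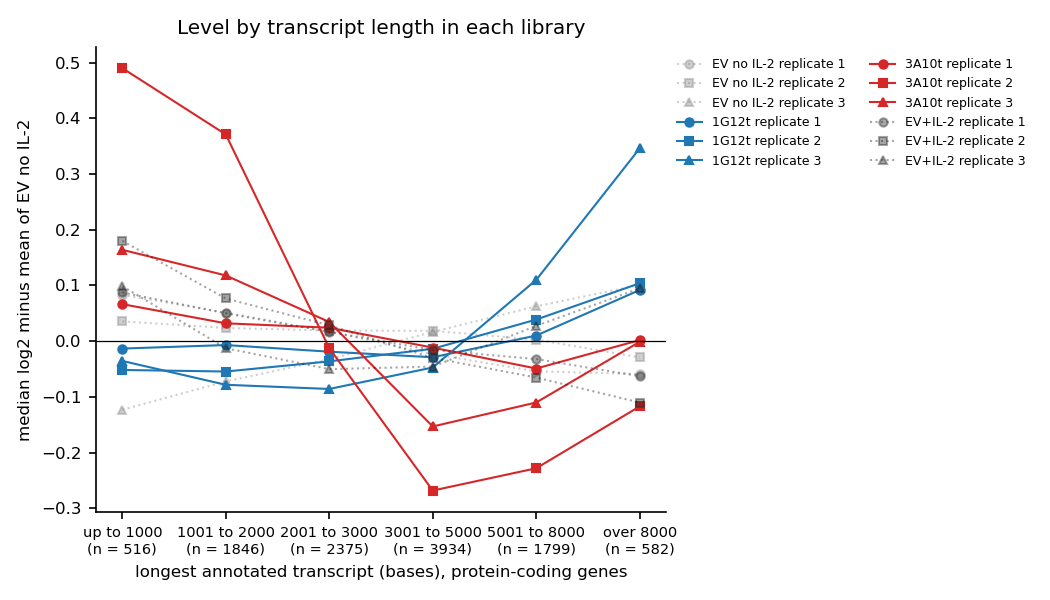
Median log2 level of protein-coding genes relative to the mean of EV no IL-2 (y axis) by class of longest annotated transcript in bases (x axis), one line per library; red is 3A10t, blue is 1G12t and dotted lines are EV and EV+IL-2. Replicate 2 of 3A10t is at 0.49 for the shortest class and 1G12t replicate 3 at 0.35 for the longest.

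Some RNA genes outside the protein-coding class were listed at 0 in whole groups, so that they passed the filter on mean TPM only through the groups where they were listed above 0, and their differences are given as a description. Gm22183, annotated as a miRNA gene of 73 bases (chromosome 10, 126036827 to 126036899, plus strand), was listed at 0 in the 9 other libraries and at 52, 33.8 and 24.7 in 3A10t. Snord35a, a snoRNA gene, was listed at 0 in all 3 libraries of 1G12t, at 23.6, 15.6 and 22.6 in 3A10t and at 27.5, 39.1 and 18 in EV, and Gm27718 likewise was at 0 in 1G12t and at 19.7, 39.9 and 15.3 in 3A10t. In all, 11 genes were listed at 0 in every 1G12t library and above 0 in every 3A10t library, and 9 the other way round; between EV and EV+IL-2 the same counts were 5 and 12. Of the 20 genes 18 have transcripts of up to 200 bases. Lower in 3A10t were Gm24853, at 61, 34.7 and 28.3 in 1G12t and 9.27, 0.473 and 11.9 in 3A10t, and the longer Gm12940 and Gm4134, by 1.02 and 0.70.

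Mir199b and Mir30c-1 were each listed at 0 in all libraries of 1 tether, so their passing with the 6 libraries alone is only a description. Their mature RNAs are shown, with the seed (bases 2 to 8) in capitals, to identify the loci. Both loci were chosen after their values were seen.
miR-199b-3p: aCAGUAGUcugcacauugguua
miR-30c-1-3p: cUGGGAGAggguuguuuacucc
miR-30c-5p: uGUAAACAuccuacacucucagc
Mir199b, read over 110 bases on the opposite strand to its host Dnm1, was listed at 0 in 1G12t and at 11.8, 8.03 and 5.72 in 3A10t. Mir30c-1, read over 89 bases within Nfyc, was at 14.3, 12.9 and 7.62 in 1G12t and listed at 0 in 3A10t. Libraries primed with oligo-dT do not capture mature miRNAs, so these values describe reads over the loci and not the mature sequences.

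A group of AT-rich satellite-like genes was higher in 3A10t. Gm10800 was at 5983, 2643 and 5862 in 1G12t, 11680, 21230 and 17500 in 3A10t, 2677, 2476 and 3227 in EV and 299.6, 301 and 642 with soluble IL-2. The 3A10t libraries were above all others and EV+IL-2 lowest, with a tether difference of 1.85 ± 0.37 (SE) (adjusted p = 0.0333). Together 12 such genes took 2.03% to 3.79% of TPM in 3A10t, 0.474% to 1.11% in 1G12t and 0.399% to 0.568% in EV. Of 10 tested 5 passed (1.30% of all genes were called higher), Gm10800, Gm11168, Gm21738, Gm10715 and Gm10718, and the median was 1.51. They share near-identical sequence, so that reads could not be placed with certainty. TPM is a share of the whole. As in all libraries, TPM were divided by median-of-ratios factors, which were 0.993, 0.846 and 0.953 in 3A10t and 1.04, 1.06 and 1.08 in 1G12t. What set these factors was not tested. With TPM as deposited 96 genes were higher and 1300 lower, and the median over all genes moved to -0.18.

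Genes that soluble IL-2 changed in EV cells were then followed between the tethers, which share no library with that contrast. Both contrasts came from the same fit with a shared spread per gene. The shares called are therefore not independent of how the genes were chosen. The 1229 genes that IL-2 raised had a median difference of 0.18, with 74 called higher (6.02%) and 7 lower (0.57%). Of them 31.3% were above 1G12t in every 3A10t library and 5.61% below. The 773 genes that it lowered had a median of -0.04, with 11 called higher (1.42%) and 27 lower (3.49%). Over all genes tested 1.30% were called higher and 2.96% lower, and 13.7% were above and 12.5% below. The shares called among the lowered genes were near these. Relative to EV the raised genes stood at 0.05, -0.01 and -0.03 in the 1G12t libraries, at 0.14, 0.28 and 0.20 in 3A10t and at 0.77, 0.77 and 0.71 in EV+IL-2. Genes raised by more than 2 log2 units had a median of 0.30, with 4 of 104 called, and the whole relation across 11052 protein-coding genes was loose (Pearson r = 0.21, Spearman rho = 0.231; r = 0.199 after length correction), a description across genes that share libraries.

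**Figure D5:**
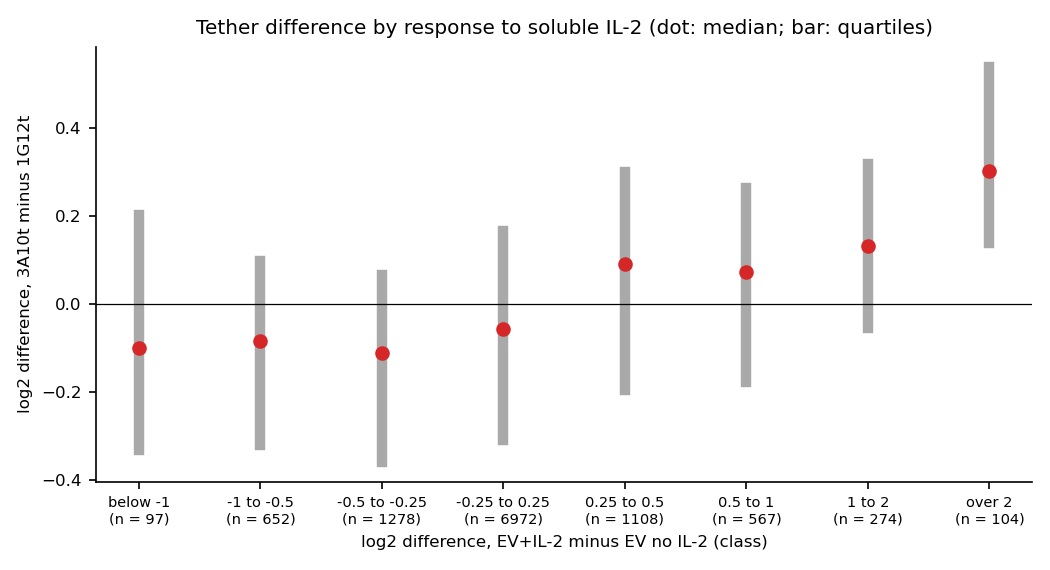
Tether difference (y axis, log2, 3A10t minus 1G12t) of protein-coding genes by their log2 difference between EV+IL-2 and EV no IL-2 (x axis, classes); dots are medians and bars run from the lower to the upper quartile. The median rises from -0.10 in the class below -1 to 0.30 in the class over 2.

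Markers of other cells were low, and in bulk RNA fewer cells of a type cannot be told apart from less RNA per cell. The 4 B cell markers summed to 14.3 to 27.1 scaled TPM in 1G12t and 21.1 to 27.4 in 3A10t, and both CD8 markers to 3.48 to 4.60 and 4.30 to 6.57. NK cell markers reached at most 0.922, erythroid markers 3.94 and γδ T cell markers 11.5. The 5 myeloid markers summed to 446 to 545 in 1G12t and 545 to 772 in 3A10t, nearly all of it Cst3, which many cells make, while Lyz2, S100a8, S100a9 and Csf1r were each at 1.75 or less. Effector T helper markers ranged from 16.0 to 20.5 and 19.6 to 21. No marker gene of these other cell types that was tested passed, and no defining marker was at 0 in all 6 libraries. The 10 most abundant genes took 9.61% to 9.92% of TPM in 1G12t and 10.8% to 13.5% in 3A10t.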

How the data were processed

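RNA-seq was performed on 12 libraries of sorted mouse Tregs, 3 in each of 4 groups, from oligo-dT primed full-length cDNA read as 50-base pairs. According to the submitters' processing notes and the study's methods, the authors trimmed reads with cutadapt 1.18, aligned them with STAR 2.5.3 to mm10 (GRCm38) and estimated expression with RSEM 1.3.0. The deposited values are TPM per gene symbol, normalized by the authors to transcript length and library total. The authors used DESeq2 1.26 on counts, which were not used here. TPM keep no depth, so the precision per library is unknown and intervals cover the spread between libraries only. Lymph nodes are the source given in the labels, while the methods also name spleens.

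Genes were kept whose TPM averaged 1 or more across the 12 columns. TPM were divided by median-of-ratios factors over those genes (scaled TPM) and a pseudocount of 1 was added before the log2 transformation, which understates the change of low genes. The 4 group means were fitted with limma 3.58.1 (R 4.3.3; lmFit and eBayes with a trend) over all 12 libraries, without a block, and p-values were adjusted by the Benjamini-Hochberg method over 15043 genes. The test was run on simulated data of 15043 genes, of which 200 had a log2 difference of 1 or -1 between the tethers. Of these 168 were recovered, with 14 false calls. In the data many named differences were smaller, and the median SD between replicates was 0.224 in 3A10t against 0.119 in EV. The simulated counts therefore do not give the recovery or error rate of the tether comparison. Replicate numbers pair samples because the labels give each number a shared sort. The correlations of same-numbered deviations between the tethers were -0.00, 0.03 and 0.11. Gene types, positions and longest transcripts came from GENCODE M21, which held 53569 of the 55228 symbols, and promoters and miRNAs from RefSeq (GRCm38.p6). Transcript length was corrected with a lowess curve (span 0.3) of log2 level on log2 length per library.

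Genes were named by rule: 33 core genes of IL-2 signalling and Treg function; among called genes that averaged 5 TPM or more and whose tether libraries did not overlap, the 12 protein-coding genes with the largest change in each direction and 3 of other types; and up to 3 members per direction of each gene list, or the member with the lowest p, except 1 called gene that is not reported here. Members, lists and rules were chosen with earlier results of these data known. Mir199b, Mir30c-1, Smg6 and the myeloid markers given singly were named after their values were seen. Il12a was below the filter. Alternatives were other pseudocounts (0.1 and 5), filters, scalings, models and length corrections, and the omission of each library.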

Additional observations from a re-analysis of the deposited data

How the results depend on the processing

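The count of 642 genes with an adjusted p under 0.05 was within 1.5 times with a pseudocount of 0.1 or 5 and with quantile normalization. It was 142 with no filter on low TPM (of 50219 genes), 1081 over genes averaging 5 TPM or more, 1387 with protein-coding genes only, 1396 with TPM as deposited, 254 without a trend and 6501 with library weights, which rested on 3A10t replicate 3. It was 207 with the length correction, and 227 with the length correction and the replicate block. With the 6 libraries compared alone it was 13, and single omissions gave 40 to 4106. The share of calls that were higher in 3A10t was 30.5% in the main analysis, 6.88% with TPM as deposited, 19.3% without a trend, 44.7% with library weights and 46.4% with the length correction. The count at an unadjusted p under 0.01 with a difference beyond 0.25, 1857, was 497 with the 6 libraries, 4829 with library weights and 1043 to 3672 over single omissions. An omission of 1G12t replicate 3 and 3A10t replicate 1 together, added after seeing the data, gave 3315 and 3154. What set these counts was not tested.

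In the paired analysis, the replicate block raised the count to 987 and left 66 of the 68 changed genes named here past the threshold. Those 68 kept their sign under every alternative. In all 68 the tether libraries did not overlap, so the omission of a single library could hardly have turned a sign. Without 1G12t replicate 3 or 3A10t replicate 3 5 of them passed, without 1G12t replicate 2 9, without any other library but 3A10t replicate 1 12 to 17, and without 3A10t replicate 1 all 68. The median over genes raised by soluble IL-2 (0.18) was 0.11 with a pseudocount of 5 and 0.048 with TPM as deposited, and that over lowered genes (-0.04) was -0.155 with TPM as deposited.

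Signs changed only for genes that had not passed, and the tether libraries of the 68 that passed did not overlap. With TPM as deposited and quantile normalization in turn, the differences were -0.0331 and -0.0364 for Cish, -0.112 and -0.0188 for Tnfrsf9, -0.177 and -0.202 for Il2ra, -0.192 and -0.209 for Jak1, and -0.0473 and -0.0266 for Thy1, and Bcl2 was at -0.0282 with TPM as deposited. With library weights they were -0.0205 for Il2, -0.0741 for Il2ra, -0.082 for Jak1, -0.00301 for Thy1, 0.255 for Ikzf2 and 0.203 for Mcl1. The length correction, with or without the block, gave 0.0792 for Il2rb, 0.00952 for Stat5b and 0.0907 for Ikzf2. Socs3 was at 0.0138 with the 6 libraries and 0.0217 with protein-coding genes only, and Jak1 at -0.00732 over genes averaging 5 TPM or more. The double omission gave 0.0371 for Pim1, -0.166 for Il2ra and 0.165 for Ikzf2. Over single omissions, Socs3 ranged from -0.31 to 0.19, Tnfrsf9 ranged from -0.0222 to 0.24, Il2ra ranged from -0.12 to 0.12, Jak1 ranged from -0.17 to 0.13, Ikzf2 ranged from -0.32 to 0.17, Ctla4 ranged from -0.21 to 0.00882 and Il10 ranged from -0.0485 to 1.22.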
